A study of Arabidopsis thaliana with 8 samples.

Results

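Flavonols and anthocyanins are made by a short chain of enzymes, and the transcripts of 9 genes of that chain were followed here in Arabidopsis thaliana seedlings after induction of the clock gene LHY. The genes were CHS (AT5G13930), CHI (AT3G55120), F3H (AT3G51240), F3'H (AT5G07990), FLS1 (AT5G08640), DFR (AT5G42800), LDOX (AT4G22880), GSTF12 (AT5G17220) and UF3GT (AT5G54060). They were taken by locus, through every array probe annotated to them. These 9 loci held 13 of the 43603 probes on the array, and all 9 were among the 21471 genes or unnamed transcripts tested. F3H and GSTF12 had 2 probes each, F3'H had 3 and the other genes 1 each, and all 13 passed the filter on dim probes.

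The Alc::LHY line carries, besides its own LHY, a copy of LHY that ethanol switches on, and the wild type shares its Col-0 background. Seedlings of both lines spent 2 weeks on MS-agar with a 12 h photoperiod before they were moved to continuous light. Both lines received ethanol, and whole seedlings were collected. The first dose, 5 ml to the roots, came after 17 h of continuous light, and filter paper of 3 cm2 soaked in ethanol was renewed every hour. Alc::LHY and wild type were compared at 0 h, 2 h, 4 h and 8-9 h after ethanol, with 2 arrays per time (replicates S and I) and RNA of both lines on each array. The 8-9 h samples of replicate S were collected at 9 h and those of replicate I at 8 h. No line carried the switch without the added LHY copy, so the added LHY, the switch itself and other differences between the lines cannot be told apart. Alc::LHY RNA carried Cy5 in replicate S and Cy3 in replicate I, and each replicate lay on its own slide, so dye, replicate and slide are one split. Whether S and I came from separate cultures is not given in the labels, so every p-value here weighs a difference against a spread that may be technical.

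The pathway starts from phenylalanine, whose carbon skeleton the phenylpropanoid enzymes turn into a coenzyme A ester. Chalcone synthase, encoded by CHS, makes this into the first flavonoid, and CHI, F3H and F3'H shape it into dihydroflavonols. There the chain branches: flavonol synthase makes colourless flavonols that absorb ultraviolet light, while DFR and LDOX lead to the coloured anthocyanins, which are decorated with sugars and stored in the vacuole. In Arabidopsis the early genes of the chain are known to be driven mainly by MYB12, MYB11 and MYB111, and the late ones by a complex of a MYB such as MYB75, a bHLH protein such as TT8 and the WD40 protein TTG1. CHS is also a classic output of the clock in light-grown plants.

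Differences between the lines are log2 ratios with Alc::LHY on top, so a negative value means lower in Alc::LHY. The figure after ± is the standard error from the fit, with n = 2 arrays per time. A gene was called when limma's test gave a Benjamini-Hochberg adjusted p under 0.05 over all genes. Levels are log2 of the normalized intensity of one dye on one array, in arbitrary units, and are compared only within a probe. Over all genes, the log2 ratios had an SD of 0.21 in replicate S and 0.32 in replicate I at 0 h, and of 0.51 to 0.67 after ethanol. Across genes, which are not independent replicates, the ratios of both replicates correlated at -0.39 at 0 h, 0.65 at 2 h, 0.81 at 4 h and 0.87 at 8-9 h. The signal of LHY itself, read by 1 dim probe, was too weak to count as well above background for both lines at 0 h and for wild type at 2 h. At 2 h it was at least 1.49-fold higher in Alc::LHY (limma, adjusted p = 0.0301), where the wild-type level is only a bound, and it did not pass at 4 h (0.38 ± 0.13, adjusted p = 0.0534) or 8-9 h (0.24 ± 0.13, adjusted p = 0.181). The call at 2 h stood on ratios of 0.97 in replicate S and 0.17 in replicate I. The LHY level in wild type was 6.11, 6.34, 6.63 and 6.91 at 0, 2, 4 and 8-9 h in S and 6.25, 6.43, 6.59 and 7.04 in I. In Alc::LHY it was 6.30, 7.31, 7.14 and 7.26 in S and 6.11, 6.60, 6.84 and 7.17 in I. Whether this probe reads the added LHY copy could not be checked. CCA1, the closest relative of LHY and like it a clock gene of the morning, was lower at 4 h (-0.94 ± 0.22, adjusted p = 0.0168), and did not pass at 2 h (-0.39 ± 0.22, adjusted p = 0.309) or 8-9 h (-0.51 ± 0.22, adjusted p = 0.115).

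Before ethanol and 2 h after it, none of the 9 enzyme genes passed the test, while 7 were lower in Alc::LHY at 4 h and all 9 at 8-9 h. At 0 h the differences lay between -0.18 (F3'H) and 0.72 (GSTF12) with a median of 0.15, and 0 of 9 were called, beside 0.0140% of all genes. At an unadjusted p under 0.05, limma gave 0 of the 9 at 0 h. At 2 h they lay between -0.28 (LDOX) and 0.33 (FLS1) with a median of -0.11, and 0 of 9 were called, although 14.2% of all genes were, 7.82% as lower. At an unadjusted p under 0.05, limma gave 1 of the 9 at 2 h, which was FLS1 (adjusted p = 0.0639). The replicates disagreed in sign at 2 h: 9 of the 9 ratios were below 0 in replicate S and 3 of the 9 in replicate I.

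At 4 h 7 of the 9 genes were lower in Alc::LHY by limma's test, where 36.7% of all genes were called and 19.4% were called lower. The differences ran from -1.19 (GSTF12) to -0.74 (UF3GT), which is 2.28-fold and 1.68-fold lower. Their median was -0.94, while the median of all genes was -0.01. DFR (-0.91 ± 0.39, adjusted p = 0.114) and GSTF12 (-1.19 ± 0.44, adjusted p = 0.0748) did not pass, and their arrays lay far apart. At 8-9 h 9 of the 9 were lower, where again 36.7% of all genes were called and 20.0% were called lower. The differences then ran from -1.96 (GSTF12) to -0.94 (F3'H), or 3.89-fold to 1.92-fold lower, with a median of -1.17 against -0.01 over all genes. Both Alc::LHY levels were below both wild-type levels for 8 of the 9 genes at 4 h and for 9 of 9 at 8-9 h, and this held for 31.4% and 33.3% of all genes. The exception was DFR at 4 h. The counts depended on single arrays, where a time left with 1 array is assumed to vary like the rest. Without replicate I at 4 h, CHI (-0.69) and FLS1 (-1.17) alone passed, the 7 others lay between -0.61 (CHS) and 0.14 (DFR), and 18.3% of all genes were called. Without replicate S at 4 h, 9 of 9 passed, from -2.31 (GSTF12) to -0.97 (CHI), beside 15.4% of all genes. Without replicate I at 8-9 h, CHI, FLS1 and UF3GT passed (3 of 9, beside 9.04% of all genes), and without replicate S at 8-9 h, CHS, CHI, F3H and FLS1 did (4 of 9, beside 16.6%), while all 9 values lay between -2.14 and -0.87 in either case. With each array's ratios centred on their median in place of a loess curve, 1 of the 9 (FLS1) was called at 4 h and 0 at 8-9 h, where 6.72% and 1.33% of all genes were. The 9 differences then ran from -1.48 to -0.84 at 4 h and from -1.67 to -0.67 at 8-9 h. That scaling moved the median of all genes to -0.12 at 2 h, -0.10 at 4 h and 0.11 at 8-9 h. Of the genes it called, 23.7% were higher at 4 h, where loess gave 47.2%, and 76.1% at 8-9 h, where loess gave 45.7%.

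**Figure D1:**
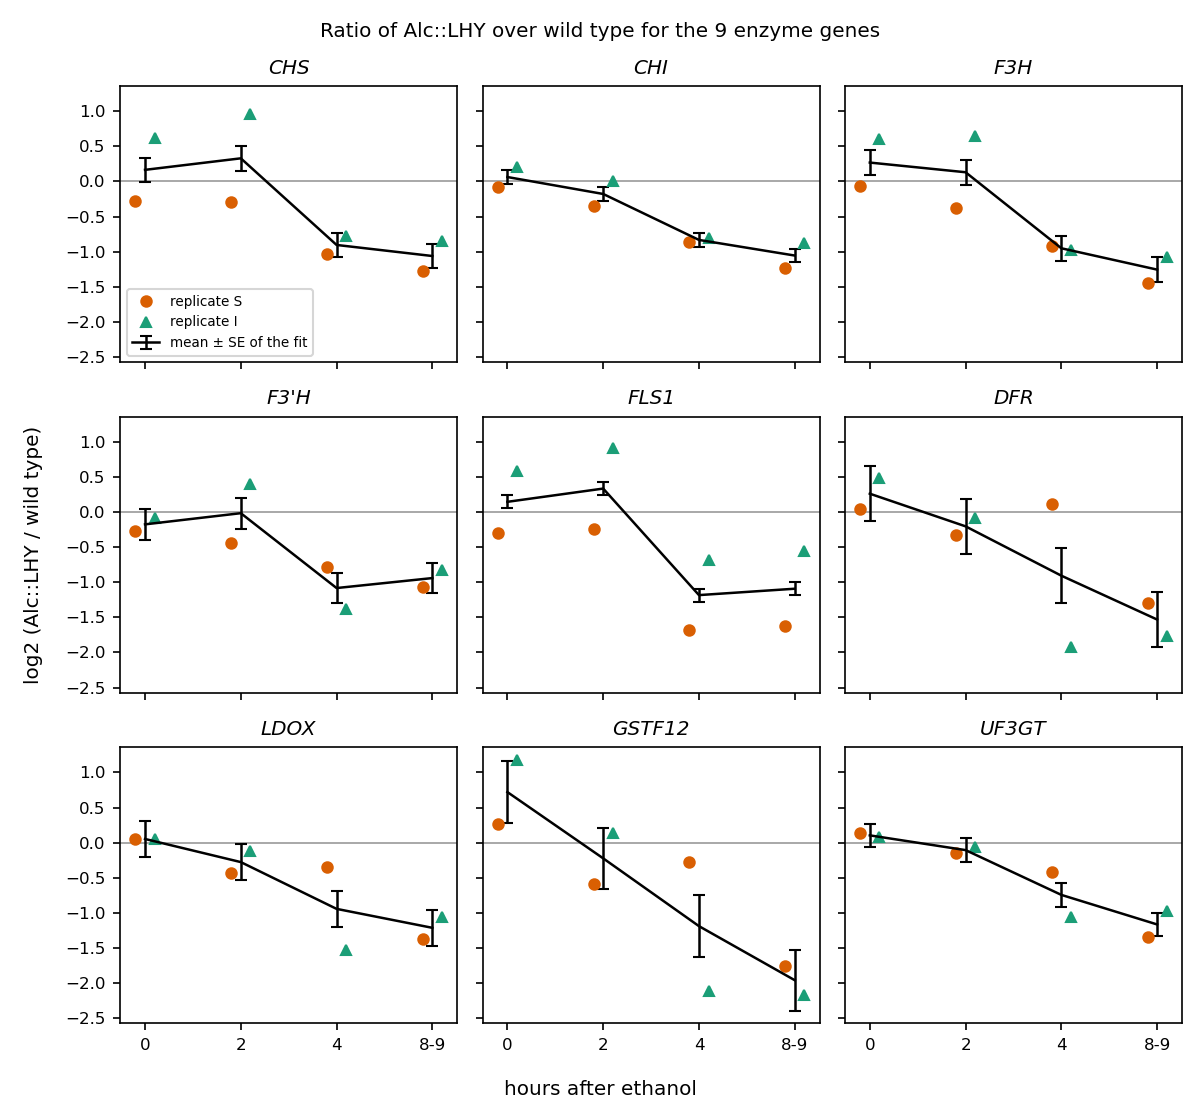
Log2 ratio of Alc::LHY over wild type (vertical axis) against hours after ethanol (horizontal axis) for each of the 9 enzyme genes. Orange circles are the arrays of replicate S, green triangles those of replicate I, and the black line joins the fitted means with their standard errors. At 8-9 h all 18 points lie below 0. At 4 h the circles and triangles lie far apart for DFR, LDOX and GSTF12.

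CHS encodes chalcone synthase, which condenses a coumaroyl ester with malonyl units and commits carbon to flavonoids (TT4 in the RefSeq gene table). The CHS level at 4 h was 11.82 in S and 12.35 in I of Alc::LHY, against 12.86 and 13.12 in wild type. At 8-9 h it was 11.70 and 11.70 in Alc::LHY, against 12.98 and 12.55 in wild type. The lines did not overlap at either time, and both replicates of Alc::LHY ended at nearly the same level. The difference was -0.90 ± 0.17 at 4 h (1.87-fold lower, adjusted p = 0.00883) and -1.06 ± 0.17 at 8-9 h (2.09-fold lower, adjusted p = 0.0047). Up to 2 h the replicates pointed in opposite directions, with ratios of -0.28 in S and 0.61 in I at 0 h and of -0.30 and 0.96 at 2 h.

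CHI encodes chalcone isomerase, which closes the ring of the chalcone (TT5 in the gene table). It was called at 4 h and at 8-9 h whichever single array was left out. Alc::LHY levels at 4 h were 8.39 in S and 8.61 in I, against 9.25 and 9.41 in wild type. By 8-9 h the levels were 7.98 and 8.22 in Alc::LHY, against 9.21 and 9.09 in wild type. Alc::LHY was thus below wild type on all 4 arrays of the later times. CHI differed by -0.83 ± 0.10 at 4 h (1.78-fold lower, adjusted p = 0.00156) and by -1.05 ± 0.10 at 8-9 h (2.08-fold lower, adjusted p = 0.000739).

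F3H encodes flavanone 3-hydroxylase, which makes the first dihydroflavonol. Its brighter probe read 10.61 in S and 10.99 in I of Alc::LHY at 4 h, against 11.53 and 11.97 in wild type. The readings at 8-9 h were 10.41 and 10.32 in Alc::LHY, against 11.85 and 11.39 in wild type. The levels of the lines were apart at both times. F3H differed by -0.95 ± 0.18 at 4 h (1.93-fold lower, adjusted p = 0.00771) and by -1.26 ± 0.18 at 8-9 h (2.39-fold lower, adjusted p = 0.00273). Its other probe gave -1.09 ± 0.20 and -1.11 ± 0.20 at these times in a fit of all 28465 probes (adjusted p = 0.00668 and 0.00616).

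F3'H encodes flavonoid 3'-hydroxylase, a cytochrome P450 that adds the hydroxyl group by which quercetin differs from kaempferol and cyanidin from pelargonidin (TT7 in the gene table). At 4 h its brightest probe stood at 8.64 in S and 8.29 in I of Alc::LHY, against 9.42 and 9.68 in wild type. The 8-9 h values were 8.63 and 8.06 in Alc::LHY, against 9.69 and 8.88 in wild type. Both lines shifted between replicates, but Alc::LHY stayed below. F3'H differed by -1.08 ± 0.22 at 4 h (2.12-fold lower, adjusted p = 0.0103) and by -0.94 ± 0.22 at 8-9 h (1.92-fold lower, adjusted p = 0.0166). Both other probes of F3'H were dim, with log2 levels of 6.37 to 7.33, and their differences were nearer 0. They gave -0.11 and -0.37 at 4 h and -0.33 and -0.32 at 8-9 h, and none of these passed (adjusted p of 0.0592 to 0.482 over all probes). The mean of the 3 probes gave -0.52 (adjusted p = 0.0342) at 4 h and -0.53 (adjusted p = 0.0314) at 8-9 h.

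FLS1 encodes the main flavonol synthase and draws dihydroflavonols off to flavonols. In Alc::LHY its level was 11.40, 11.30, 10.30 and 9.85 at 0, 2, 4 and 8-9 h in replicate S and 12.15, 12.10, 11.61 and 10.81 in replicate I. In wild type the same times gave 11.70, 11.54, 11.98 and 11.48 in S and 11.55, 11.19, 12.29 and 11.37 in I. The level in Alc::LHY was lower at each later time in both replicates, while that of wild type showed no such order. FLS1 differed by -1.18 ± 0.09 at 4 h (2.27-fold lower, adjusted p = 0.000478) and by -1.09 ± 0.09 at 8-9 h (2.13-fold lower, adjusted p = 0.000592). Its ratios also carried the largest offset between replicates among the 9 genes. They were -0.30 in S and 0.59 in I at 0 h, -0.24 and 0.91 at 2 h, -1.68 and -0.68 at 4 h, and -1.63 and -0.56 at 8-9 h. The dye term of the fit, which takes up this offset, was -0.51 ± 0.05 for FLS1 (adjusted p = 0.0657). Without that term, which is also the replicate block, the same differences missed the threshold (adjusted p = 0.0529 at 4 h and 0.0672 at 8-9 h).

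DFR encodes dihydroflavonol reductase, the first enzyme of the anthocyanin branch. In Alc::LHY its level was 9.29, 8.89, 9.60 and 9.56 at 0, 2, 4 and 8-9 h in replicate S and 7.43, 7.80, 8.20 and 8.10 in replicate I. Wild type gave 9.25, 9.21, 9.49 and 10.85 in S and 6.95, 7.89, 10.12 and 9.87 in I. At 0 h the replicates of each line lay further apart than the fitted difference between the lines at any time. The ratios at 4 h were 0.11 (S) and -1.92 (I), so the lines overlapped, and the difference of -0.91 ± 0.39 did not pass (adjusted p = 0.114). At 8-9 h the ratios were -1.29 and -1.77 and the lines were apart (-1.53 ± 0.39, 2.89-fold lower, adjusted p = 0.0226).

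LDOX encodes leucoanthocyanidin dioxygenase, which makes the coloured anthocyanidins. Levels at 4 h were 7.77 in S and 7.22 in I of Alc::LHY, against 8.12 and 8.75 in wild type. At 8-9 h LDOX read 7.87 and 6.88 in Alc::LHY, against 9.23 and 7.94 in wild type. Alc::LHY was below wild type on each of these 4 arrays, least so in replicate S at 4 h. The difference was -0.94 ± 0.26 at 4 h (1.92-fold lower, adjusted p = 0.0288) and -1.21 ± 0.26 at 8-9 h (2.32-fold lower, adjusted p = 0.0117). Without replicate I the difference at 4 h was -0.25 (adjusted p = 0.339). The scanner's own ratio gave LDOX -1.72 (adjusted p = 0.0435) at 4 h and -1.94 (adjusted p = 0.0332) at 8-9 h.

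GSTF12 encodes a glutathione transferase needed to bring anthocyanins into the vacuole. In Alc::LHY its brighter probe read 11.40, 10.67, 11.32 and 11.08 at 0, 2, 4 and 8-9 h in replicate S and 10.08, 10.12, 9.94 and 9.80 in replicate I. Wild type read 11.14, 11.26, 11.59 and 12.83 in S and 8.90, 9.97, 12.05 and 11.97 in I. Wild type was highest at the later times while Alc::LHY kept within a narrower range in each replicate. The ratios were -0.27 in S and -2.11 in I at 4 h and -1.75 and -2.17 at 8-9 h. The difference at 8-9 h, -1.96 ± 0.44 (3.89-fold lower, adjusted p = 0.0144), had the greatest size of all 9 genes at any time in this fit. The dim second probe of GSTF12 gave -0.16 ± 0.11 (adjusted p = 0.318) at 4 h and -0.40 ± 0.11 (adjusted p = 0.0347) at 8-9 h over all probes. The mean of both probes gave -0.67 (adjusted p = 0.0768) at 4 h and -1.18 (adjusted p = 0.0123) at 8-9 h.

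UF3GT encodes a glycosyltransferase that adds xylose to the sugar of anthocyanins. Its signal was near the detection limit. It was not well above background in either line at 0 h in replicate I, nor in Alc::LHY at 2 h and 4 h in that replicate. The level at 4 h was 7.21 in S and 6.87 in I of Alc::LHY, against 7.64 and 7.93 in wild type. At 8-9 h UF3GT stood at 7.03 and 6.76 in Alc::LHY, against 8.38 and 7.74 in wild type. The lines were apart at both times. The difference was -0.74 ± 0.17 at 4 h (1.68-fold lower, adjusted p = 0.0154) and -1.17 ± 0.17 at 8-9 h (2.24-fold lower, adjusted p = 0.0029). The scanner's own ratio gave UF3GT larger differences, -1.41 (adjusted p = 0.0371) at 4 h and -1.95 (adjusted p = 0.0174) at 8-9 h.

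Whether the difference between the lines had moved was tested next, as contrasts between times of the same fit. FLS1 was the 1 of the 9 whose difference fell between 2 h and 4 h (by 1.52 ± 0.13 on the log2 scale, adjusted p = 0.0439, limma). In all, 22 genes (0.102%) passed this contrast, 0.0931% as lower, and FLS1 ranked 5th among all genes by p. The unadjusted p was under 0.05 for 6 of the 9, each with a value below 0, and for 3642 of 21471 genes. FLS1 was also the 1 of the 9 for 8-9 h minus 2 h (-1.43 ± 0.13, adjusted p = 0.0413), a contrast that 0.168% of all genes passed, 0.135% as lower. Here the unadjusted p was under 0.05 for 9 of the 9, with values from -1.74 (GSTF12) to -0.88 (CHI), and for 3778 of 21471 genes. Whichever single array was left out, 0 genes in all passed either contrast, FLS1 included, while its value stayed between -1.61 and -1.43 at 4 h minus 2 h over all 17 alternatives. At 8-9 h minus 2 h it lay between -1.51 and -1.35 over the same alternatives except median centring, which gave -0.77 (adjusted p = 0.669). CHS came next at 4 h minus 2 h, with -1.23 ± 0.25 (adjusted p = 0.0976). Between 0 h and 2 h, 0 of the 9 moved by limma's test, 0 did at an unadjusted p under 0.05, and 4.13% of all genes were called. Between 4 h and 8-9 h limma called 0 of the 9 and 0 genes in all, and at an unadjusted p under 0.05 it gave 0 of the 9 and 1745 genes.

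Against the 0 h difference, a pair of contrasts added after the data had been seen, 4 of the 9 genes had fallen at 4 h and 6 of the 9 at 8-9 h. At 4 h minus 0 h these were F3H (-1.22), CHS (-1.07), CHI (-0.90) and FLS1 (-1.33), beside 17.3% of all genes called and 10.5% called lower. At 8-9 h minus 0 h they were GSTF12 (-2.68 ± 0.62, adjusted p = 0.0287), F3H (-1.52), UF3GT (-1.27), FLS1 (-1.24), CHS (-1.23) and CHI (-1.12), beside 19.1% of all genes called and 11.9% called lower. DFR (-1.79 ± 0.55, adjusted p = 0.0669), LDOX (-1.27 ± 0.36, adjusted p = 0.0544) and F3'H (-0.77 ± 0.31, adjusted p = 0.135) did not pass. At 4 h minus 0 h, 1 of the 9 passed without replicate I at 0 h or at 4 h (beside 5.22% and 8.93% of all genes), 2 without replicate S at 0 h (2292 of 21421 genes) and 9 without replicate S at 4 h (6.55%). At 8-9 h minus 0 h, 1 passed without replicate I at 8-9 h (beside 2.38% of all genes), 2 without replicate I at 0 h (5.98%) or replicate S at 8-9 h (8.39%), and 4 without replicate S at 0 h (9.55%).

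Next, each line was compared with its own 0 h level in a separate-channel fit of 21412 genes. The adjusted p also depends on how many genes changed in that line, so counts of calls cannot be compared between the lines. Time after ethanol and time in continuous light are the same here and cannot be told apart. In Alc::LHY, CHI was lower at 2 h (-0.40 ± 0.11, adjusted p = 0.0338), 4 h (-0.50 ± 0.11, adjusted p = 0.00704) and 8-9 h (-0.91 ± 0.11, adjusted p = 0.000323). FLS1 was lower at 4 h (-0.82 ± 0.16, adjusted p = 0.00476) and at 8-9 h (-1.44 ± 0.16, 2.72-fold, adjusted p = 0.000249). F3H (-0.87 ± 0.23, adjusted p = 0.0151) and CHS (-0.71 ± 0.22, adjusted p = 0.0291) were lower at 8-9 h alone. This made 1, 2 and 4 of the 9 at the 3 times, beside 14.9%, 28.2% and 34.4% of all genes called and 7.63%, 14.5% and 16.8% called lower. At an unadjusted p under 0.05, limma also gave 1, 2 and 4 of the 9, and 6119, 8492 and 9502 of 21412 genes. At 8-9 h the calls of CHS and F3H were lost without either array at 0 h or without replicate I at 8-9 h. At 4 h the call of CHI was lost without either array at 0 h, and that of FLS1 without replicate S at 0 h. The shares of all genes called in these refits are not given here. The 2 h call of CHI was lost without any one array of 0 h, 2 h or 8-9 h (adjusted p of 0.0789 to 0.22). No gene of the anthocyanin branch passed in Alc::LHY at any time, with changes between -0.35 and 0.54, and neither did F3'H. The standard errors were 0.52 for DFR and GSTF12, 0.39 for LDOX and 0.24 for UF3GT, against 0.11 to 0.23 for the genes called. Changes as large as those called could thus be missed in DFR, GSTF12 and LDOX.

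In wild type, 3 of the 9 were higher at 8-9 h than at 0 h, and all 3 belong to the anthocyanin branch. These were GSTF12 (2.38 ± 0.52, 5.2-fold, adjusted p = 0.0376), DFR (2.26 ± 0.52, 4.78-fold, adjusted p = 0.0451) and UF3GT (1.23 ± 0.24, 2.34-fold, adjusted p = 0.0251), beside 3.82% of all genes called and 2.34% called higher. The unadjusted p was under 0.05 for 7 of the 9, each with a value above 0, and for 3664 of 21412 genes. The others of these 7 were LDOX (1.35 ± 0.39, adjusted p = 0.0988), F3H (0.65), F3'H (0.60) and CHS (0.52), while CHI stood at 0.21 and FLS1 at -0.20 (adjusted p = 0.6). The UF3GT signal in wild type at 0 h was well above background on 1 of the 2 arrays. These 3 calls in wild type were fragile: each was lost without the replicate term or without any one array of 0 h, 2 h or 8-9 h. They stood without either array of 4 h, but the shares of all genes called in these refits are not given here. The sizes moved too: without replicate I or S at 0 h, DFR gave 1.39 or 3.12 and GSTF12 1.54 or 3.22. At 2 h limma called 0 of the 9 in wild type, with 0 at an unadjusted p under 0.05 and 0.0607% of all genes called. At 4 h it also called 0 of the 9, but all 9 changes were above 0, from 0.39 (CHI) to 1.80 (GSTF12), and 9 of 9 had an unadjusted p under 0.05, where 3149 of 21412 genes did and 0.841% were called. Without replicate S at 4 h, the 9 changes in wild type at 4 h ran from 0.53 (CHI) to 2.78 (DFR). Without replicate I at 4 h they ran from 0.25 (CHI) to 0.84 (GSTF12). Values per line rest on comparisons between arrays, not on ratios within one.

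**Figure D2:**
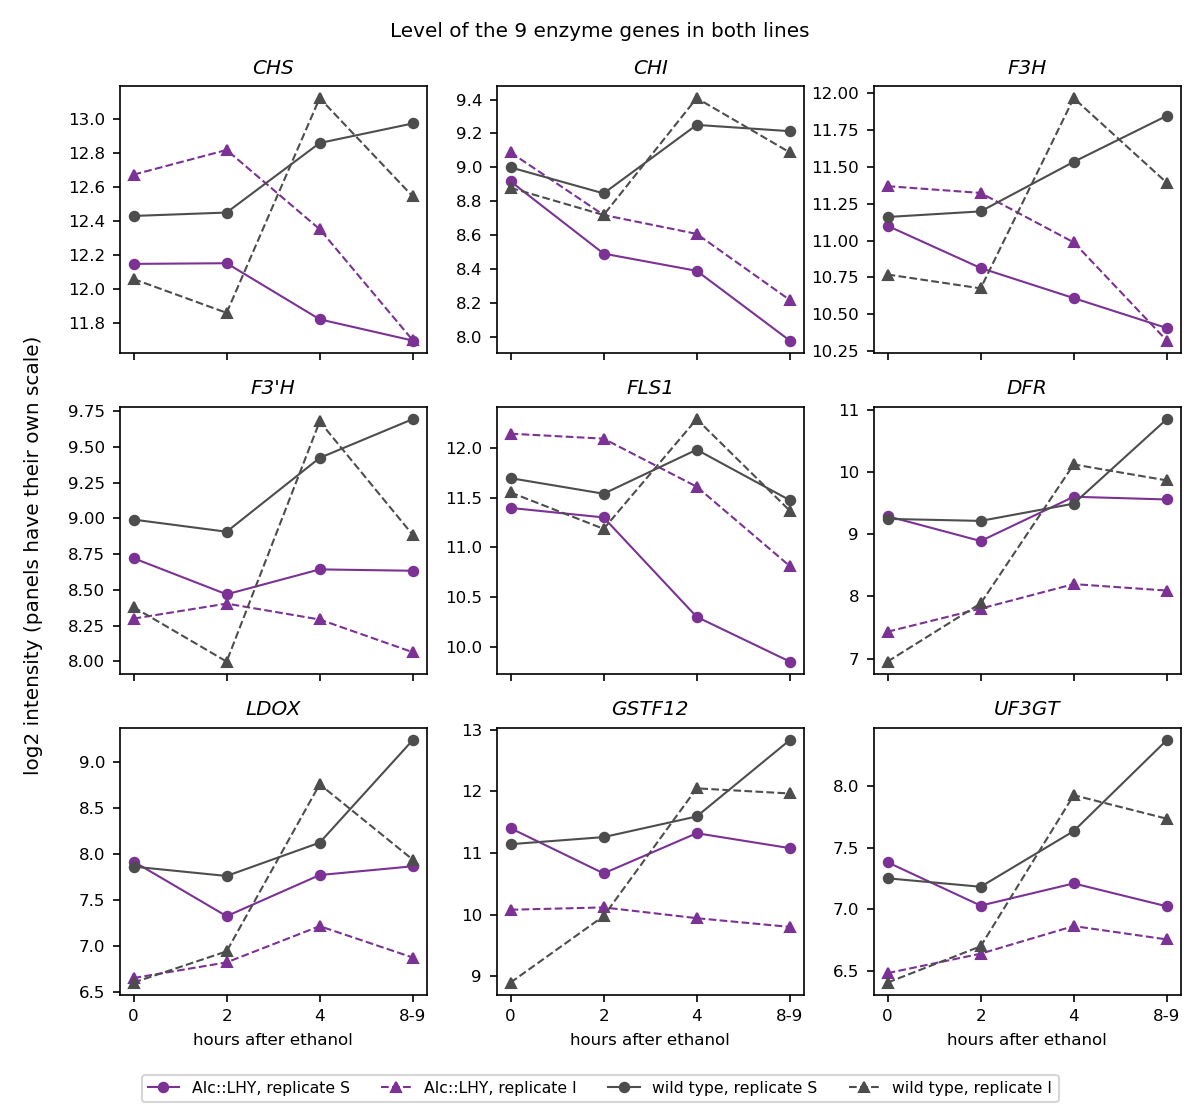
Log2 intensity (vertical axis, a separate scale for each gene) of the 9 enzyme genes in Alc::LHY (purple) and wild type (grey) against hours after ethanol. Circles with full lines are replicate S and triangles with dashed lines replicate I. CHI, F3H and FLS1 descend at each time in Alc::LHY in both replicates. All genes but FLS1 are higher in wild type at 8-9 h than at 0 h in both replicates.

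The 9 genes were then set side by side by their place in the pathway. Over the 8 arrays, the ratios of the early genes (CHS, CHI, F3H, F3'H and FLS1) correlated with each other at 0.80 to 0.97 in their 10 pairs, and those of the late genes (DFR, LDOX, GSTF12 and UF3GT) at 0.88 to 0.97 in their 6 pairs. The 20 pairs of an early with a late gene gave 0.39 (FLS1 and DFR) to 0.91 (CHI and UF3GT). These values describe 8 arrays that share 2 slides and a common course over time, and the difference between the groups was not tested. At 4 h the late genes averaged -0.23 in S and -1.66 in I, while the early genes averaged -1.06 and -0.92. At 8-9 h the late genes averaged -1.44 in S and -1.49 in I, and the early genes -1.33 and -0.83. The replicates thus disagreed on the late genes at 4 h and were close again at 8-9 h.

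**Figure D3:**
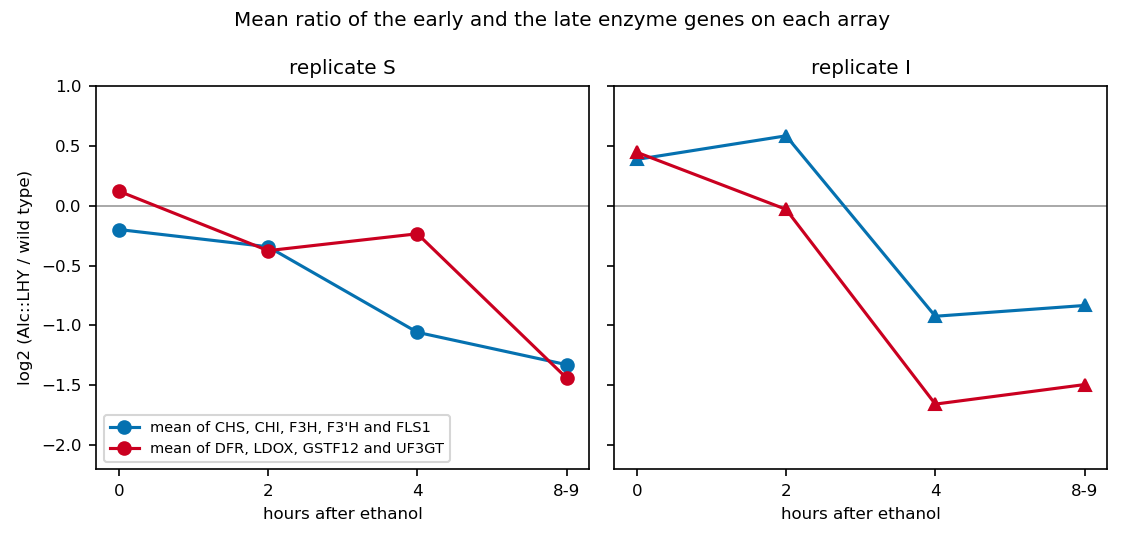
Mean log2 ratio of Alc::LHY over wild type (vertical axis) of the 5 early and the 4 late enzyme genes on each array, against hours after ethanol, for replicate S (left) and replicate I (right). In replicate S the late genes stood at -0.23 at 4 h, well above the early genes at -1.06. In replicate I they stood at -1.66, below the early genes at -0.92.

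Of 18435 other genes with a value on all 8 arrays, those whose ratios ran most like the mean of the early genes were bZIP6 (r = 0.985), AT4G24130 (0.984), AT1G22410 (0.978), GPAT6 (0.976) and GSTU13 (0.976). Those most like the late genes were AT4G22870 (0.990), JMT (0.985), 5MAT (0.983), MRB1 (0.983) and AT5G37550 (0.980). Of these, 5MAT encodes an enzyme that adds a malonyl group to anthocyanins, JMT one that methylates jasmonate, and GPAT6 an acyltransferase of cutin synthesis. AT4G22870 is the locus numbered just before LDOX. Since probe sequences were not used here, it cannot be told whether both probes read one transcript. The ratios of AT4G22870 were -0.02 in replicate S and -1.30 in replicate I at 4 h, and -1.30 and -1.26 at 8-9 h. Because AT4G22870 was chosen by its correlation over these same arrays, its likeness to the late genes at 4 h follows from that choice.

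Upstream of CHS, 5 of the 8 tested genes of phenylpropanoid entry were lower in Alc::LHY at 4 h and 6 at 8-9 h, with medians of -0.42 and -0.56, and 0 were higher. Over all genes, 19.4% were called lower at 4 h and 20.0% at 8-9 h. PAL1, an ammonia lyase that opens the pathway, differed by -1.57 ± 0.16 at 4 h (adjusted p = 0.00107) and -1.38 ± 0.16 at 8-9 h. The ligase gene 4CL1 was lower from 2 h on, at -0.75 ± 0.09 (adjusted p = 0.00378), -1.32 ± 0.09 and -1.43 ± 0.09. C4H, the hydroxylase between them, gave -0.73 ± 0.11 and -0.79 ± 0.11 at 4 h and 8-9 h. The ligase gene 4CL3, associated with flavonoids, did not pass at 4 h (-0.27 ± 0.10, adjusted p = 0.0818) but was lower at 8-9 h (-0.35 ± 0.10, adjusted p = 0.0364). The lignin branch, which competes for the same precursors, had 5 of 7 genes lower at 4 h and 6 of 7 at 8-9 h, with medians of -1.23 and -1.17. Those with the smallest adjusted p at 4 h were CAD4 (-1.56 ± 0.11), CCOAOMT1 (-1.57 ± 0.14), HCT (-1.23 ± 0.13), FAH1 (-1.58 ± 0.17) and C3H1 (-0.88 ± 0.11). CAD4 and HCT were called lower already at 2 h.

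Around and after the 9 steps, 11 of the 16 tested genes for other flavonoid enzymes and transporters were lower at 4 h and 13 at 8-9 h, of 22 listed, with medians of -0.92 and -0.96 and 0 higher. UGT84A2, a glucosyltransferase best known for sinapate, led with -1.92 ± 0.11 at 4 h (3.79-fold lower, adjusted p = 0.00022) and was already lower at 2 h (-1.12 ± 0.11, adjusted p = 0.00198). CHIL, a non-catalytic relative of CHI that promotes flavonoid production, gave -0.61 ± 0.19 at 2 h (adjusted p = 0.0878), -1.59 ± 0.19 at 4 h (adjusted p = 0.00158) and -1.34 ± 0.19 at 8-9 h. RHM1, which makes the rhamnose donor for flavonols, gave -1.04 ± 0.13 at 4 h and -1.23 ± 0.13 at 8-9 h. OMT1, a methyltransferase of flavonols and lignin precursors (-1.28 ± 0.10), BGLU10 (-0.98 ± 0.15) and AT1G06000 (-0.97 ± 0.15) were the others with the smallest adjusted p at 4 h. At 2 h 5 of these 16 genes were called lower. The shares of all genes called lower were 7.82% at 2 h, 19.4% at 4 h and 20.0% at 8-9 h.

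Fewer of the regulators known for the pathway could be tested. Of 13 listed activators, 6 passed the filter on dim probes. Of these, 3 were lower at 4 h and 4 at 8-9 h, beside 19.4% and 20.0% of all genes, with medians of -0.41 and -0.47. HY5, a bZIP factor of light signalling, differed by -0.66 ± 0.11 at 4 h (adjusted p = 0.00457) and -0.51 ± 0.11 at 8-9 h. TTG1 gave -0.43 ± 0.10 and -0.36 ± 0.10, and MYB111, which drives flavonol genes, -0.39 ± 0.10 and -0.43 ± 0.10. MYB12, the other tested MYB of the flavonol genes, was not called (-0.20 ± 0.10 at 4 h, adjusted p = 0.182). MYB75, which drives the anthocyanin branch, had ratios of -0.33 in replicate S and -2.06 in replicate I at 4 h and of -1.72 and -1.83 at 8-9 h. As for DFR, LDOX, GSTF12, UF3GT, F3'H and, by little, F3H, the array of replicate S at 4 h stood nearer 0 than that of replicate I. MYB75 did not pass at 4 h (-1.19 ± 0.53, adjusted p = 0.124) but was lower at 8-9 h (-1.77 ± 0.53, adjusted p = 0.0395). TT8 stood at -0.34 ± 0.19 (adjusted p = 0.205) and -0.57 ± 0.19 (adjusted p = 0.058) at these times.

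Among 10 listed repressors of the flavonoid pathway, 6 were lower at 4 h and 4 at 8-9 h, with medians of -0.58 and -0.47. The shares of all genes called lower at these times were 19.4% and 20.0%. MYB4, a repressor of phenylpropanoid genes, was lower from 2 h on (-1.49 ± 0.10 at 4 h and -1.61 ± 0.10 at 8-9 h). SPL9, which hinders the MYB and bHLH complex, gave -0.72 ± 0.13, -0.65 ± 0.13 and -1.06 ± 0.13 at 2, 4 and 8-9 h. At 4 h CPC (-0.61), MYB7 (-0.45), LBD39 (-1.24) and AT1G23390 (-1.53) were also called lower. Activators and repressors were thus both lower where they passed, and 0 of either list were higher.

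**Figure D4:**
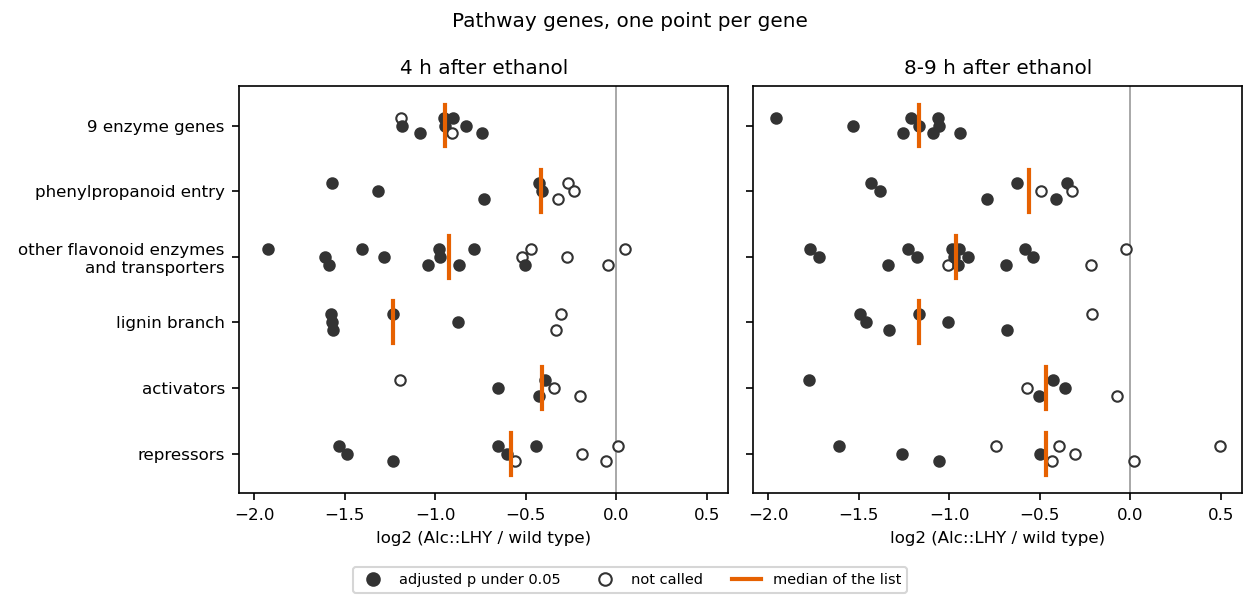
Log2 ratio of Alc::LHY over wild type (horizontal axis) at 4 h (left) and 8-9 h (right) for each tested gene of 6 lists, one point per gene. Filled points passed an adjusted p of 0.05, open points did not, and orange bars are list medians. The medians at 8-9 h are -1.17 for the 9 enzyme genes, -0.56 for phenylpropanoid entry, -0.96 for other flavonoid enzymes, -1.17 for the lignin branch, -0.47 for activators and -0.47 for repressors.

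The seedlings showed markers of shoot and root, all 7 tested root markers being well above background in both lines on every array. Of 5 markers of seed coat and embryo, BAN, TT2 and OLEO1 did not pass the filter on dim probes. CRA1 and AT2S1 passed it, and 1 of these 2 was called lower in Alc::LHY at 4 h. In wild type, 2 of the 2 were well above background at 0 h in replicate S, at 4 h in replicate I and at 8-9 h in both replicates. In Alc::LHY this held in replicate S at 2 h and at 8-9 h. Most markers of the shoot epidermis were lower in Alc::LHY from 2 h on: 3 of 5 at 2 h and 4 h and 4 of 5 at 8-9 h. The shares of all genes called lower at 2, 4 and 8-9 h were 7.82%, 19.4% and 20.0%. At 4 h CER5 stood at -0.97 and FDH at -1.05, while the highest of the 5 markers stood at 0.26 at 4 h and 0.12 at 8-9 h. Summed over the 5 markers, their linear level after ethanol was 4720 to 6980 in Alc::LHY and 8810 to 13100 in wild type, and at 0 h it was 8410 to 9370 in Alc::LHY and 6960 to 10600 in wild type. Green shoot markers were lower for 4 of 6 at 4 h and at 8-9 h, beside the same shares of all genes. On every array, also at 0 h, 5 of them summed to more in the line labelled with Cy5. At 8-9 h the sums were 357400 in Alc::LHY and 284600 in wild type in replicate S, and 215800 and 453200 in replicate I. These sums thus followed dye and replicate, and a difference between the lines cannot be read from them directly. Of 9 listed root markers, WOX5 and NRT2.1 did not pass the filter on dim probes. Of the 7 tested, 2 were higher and 2 lower at 2 h, where 14.2% of all genes were called. At 4 h 1 was higher and 3 lower, and at 8-9 h 1 was higher and 2 lower, beside 36.7% of all genes called at each of these times. Fewer cells of a type and less RNA per cell cannot be told apart in whole seedlings, and the part of these markers in the values of the enzyme genes was not tested.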

How the data were processed

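The array scans were read with Agilent Feature Extraction 10.7.3.1, per the file headers and the submitters' processing notes. The deposited median signal and background of each spot are linear intensity values. The authors' series matrix holds the scanner's log10 ratios turned to Alc::LHY over wild type: its columns have a median of 0 and correlated with the turned scanner ratios at 0.999999 or above.

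From the intensities, the background was corrected with normexp (offset 50), and ratios were normalized by loess within each array, with control spots at weight 0. The 161 spots with an outlier flag were left out, and 0 were saturated. A probe was kept when well above background in either dye on at least 2 of 8 arrays and with a value on at least 6. The brightest probe stood for a gene. Accessions were named through the TAIR10.1 RefSeq table (26259 of 35161 matched). The files' annotation uses another build, so no coordinates are given, and no sequences were analysed here.

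In R 4.3.3, limma 3.58.1 fitted the turned ratios with 4 time coefficients and a dye term, 3 residual and 3.59 prior degrees of freedom. The dye term is also the replicate block, since same-lettered arrays shared a slide and a dye order. For changes within a line, all 16 channels were Aquantile-normalized and fitted separately (statmod 1.5.0), with dye and replicate terms, 6 residual degrees of freedom and an intraspot correlation of 0.332. Both fits were tested on simulated data. Median signals per array ran from 53 to 70 in Cy3 and from 117 to 140 in Cy5, and the number of arrays limits the precision. Named genes were all 9 enzyme genes, up to 6 of each other list with the smallest adjusted p at 4 h, LHY, CCA1, and 5 genes most like each profile. The activators named were all 6 that were tested, with TT8 and MYB12 among those that missed the test. 4CL3 was named as a gene that missed the test at 4 h. Seed and root markers were named by whether they passed the filter on dim probes. The 9 genes and the lists were chosen with earlier results of these data known. Alternatives to background correction, normalization, filter, probe choice, dye term and arrays were tried.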

Additional observations from a re-analysis of the deposited data

Results flagged for a closer look

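The difference between the lines was itself tested for a change between times, and 12 such changes passed among the 9 enzyme genes (limma, adjusted p under 0.05). From 0 h to 4 h the log2 difference of Alc::LHY over wild type moved by -1.07 for CHS, -0.90 for CHI, -1.22 for F3H and -1.33 for FLS1. From 0 h to 8-9 h it moved by -1.23 for CHS, -1.12 for CHI, -1.52 for F3H, -1.24 for FLS1, -2.68 for GSTF12 and -1.27 for UF3GT. These 10 changes against 0 h were added after the data had been seen. Of all genes, 17.3% were called at 4 h minus 0 h and 19.1% at 8-9 h minus 0 h. Several of the 10 did not stand when single arrays were left out, as given above. For FLS1 the difference also moved by -1.52 from 2 h to 4 h and by -1.43 from 2 h to 8-9 h. These contrasts were passed by 0.102% and 0.168% of all genes, and neither call of FLS1 stood when any single array was left out. No group here holds 4 or more samples, so single samples were not tested as outliers.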

How the results depend on the processing

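At 4 h and 8-9 h, 7 and 9 of the 9 differences between lines were called; median centring gave 1 and 0 (6.72% and 1.33% of all genes, in place of 36.7%), the scanner's own ratio 6 and 7 (34.5% and 33.1%), and no dye term (no replicate block) 5 and 8 (30.3% and 31.1%). For 4 h minus 0 h, 4 were called (17.3% of all genes). Median centring gave 0 (0 genes in all), no replicate block 1 (12.6%) and the scanner's ratio 2 (11.8%). For 8-9 h minus 0 h, 6 were called (19.1% of all genes). Median centring gave 0 there (0 genes in all) and the scanner's ratio 2 (2288 of 21471 genes). The single call (FLS1) at 4 h minus 2 h and at 8-9 h minus 2 h became 0 under median centring, no background subtraction, no replicate block and the scanner's ratio, settings under which 0 genes in all passed these contrasts. Within a line, dropping the replicate block gave 0 in place of 1 for Alc::LHY at 2 h, 1 in place of 2 at 4 h, and 0 in place of 3 for wild type at 8-9 h. Leaving out 1 array at a time gave 2 to 9 calls at 4 h, 3 to 9 at 8-9 h, 1 to 9 at 4 h minus 0 h, 1 to 8 at 8-9 h minus 0 h, and 0 to 0 at 4 h minus 2 h and at 8-9 h minus 2 h. It gave 0 to 1, 0 to 2 and 2 to 4 for Alc::LHY at 2, 4 and 8-9 h, and 0 to 6 and 0 to 4 for wild type at 4 and 8-9 h. For the lowest of these counts between lines, the shares of all genes called are given above. For the refits within a line, such shares are not given here. The separate-channel fits that left out an array held the intraspot correlation at 0.332. Over 17 alternatives, 152 of 153 values at 4 h and 153 of 153 at 8-9 h stayed below 0; the exception was DFR at 4 h without replicate I (0.14). The cause of each shift was not tested, and with 2 arrays per time the dye, the replicate and the slide cannot be told apart. Signal over background limits UF3GT, LDOX and the dimmer probes of F3'H.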
